A study of Homo sapiens with 6 samples.

Results

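The genes described here encode 10 subunits of the SWI/SNF chromatin remodelers, measured by RNA-seq in DU-145/tet-XISTshRNA cells. DU-145 is an established human prostate cancer cell line, and the derived line carries an shRNA against the long noncoding RNA XIST that is expressed when doxycycline (DOX) is added. The members were the BAF and PBAF subunit genes ARID1A, ARID1B, ARID2, PBRM1, BRD7, SMARCA4, SMARCA2, SMARCB1, SMARCC1 and SMARCD1, taken by name from 25528 gene symbols, and all 10 passed the expression minimum with which 11672 genes were tested. Both groups consisted of transduced, drug-selected DU-145/tet-XISTshRNA cells, 3 samples treated with vehicle (0.1% DMSO) and 3 samples treated with 500 ng/ml DOX for 7 days. Cells that received DOX without the XIST shRNA were not analysed here, so an effect of DOX itself and an effect of the shRNA cannot be told apart. The labels describe triplicate cultures, and p-values measure the spread between these 6 samples. The comparison asked how mRNA levels of the remodeler genes differed after induction of the XIST shRNA.

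SWI/SNF complexes use the energy of ATP to slide and evict nucleosomes, which opens enhancers and promoters to transcription factors. Each complex holds an ATPase, SMARCA4 (BRG1) or SMARCA2 (BRM), on a core that includes SMARCB1, SMARCC1 and SMARCD1. ARID1A or ARID1B marks the canonical BAF form and ARID2, PBRM1 and BRD7 mark the PBAF form, while subunit genes of both forms are frequently mutated in human cancers.

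Levels are given as TPM, a unit of relative transcript abundance, which divides reads by gene length and sets the total of each sample to the same sum. Recovered read totals ranged from 5453703 in vehicle replicate 3 to 64572453 in DOX replicate 1, and were between 16701870 and 20352617 in the other 4 samples. A group of 5 abundant small noncoding RNAs (RN7SK, RPPH1, RN7SL1, RN7SL2 and RN7SL3) took between 67.5% and 82.6% of the TPM of a sample, with the lowest share in vehicle replicate 3 and the highest in DOX replicate 1. The median log2 fold change of all tested genes was -0.35 on the TPM scale and 0.017 after median-of-ratios scaling, in which each sample is divided by the median of its ratios to a reference sample. Values on both scales are therefore given for the members. XIST was listed at 0 in all 6 samples, as was EIF4A1, a translation factor gene that every cell uses, so that silencing of XIST could not be checked from these values. Epithelial markers were present in every sample (KRT8 between 59.9 and 91.2 TPM, KRT18 between 75.9 and 147 TPM), whereas KLK3, CD3E and COL1A2 were listed at 0 throughout. The leukocyte, endothelial and pericyte genes PTPRC, PECAM1, VWF and PDGFRB did not exceed 0.0531 TPM in any sample, and the fibroblast collagen gene COL1A1 was between 0.269 and 0.616 TPM. Bulk RNA-seq cannot separate fewer cells of a type from less RNA per cell.

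No SWI/SNF member was called as changed by DOX. A gene was called when limma gave an adjusted p-value under 0.05 together with a fold change over 1.5. By that rule 0 of the 10 members were called lower and 0 higher, where 2.98% of all tested genes were called lower and 0.0257% were called higher. At an unadjusted p-value under 0.05, limma gave 2 members (ARID2 and PBRM1) as lower and 0 as higher, beside 29.2% and 0.206% of all tested genes. The log2 fold changes of 9 of 10 members were negative, beside 10867 of 11672 tested genes. The median of the members was -0.35, the same as that of all tested genes, and 5 of 10 members were below the median of all. Every DOX sample was below every vehicle sample for 4 of 10 members on the TPM scale (ARID2, SMARCA4, SMARCA2 and SMARCC1), beside 30.7% of all tested genes. On the median-of-ratios scale this held for 1 of 10 members (ARID2), beside 9.15% of all tested genes, and the median log2 fold change of the members was 0.030.

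When the replicate number was entered as a block, limma called 2 of 10 members lower (ARID2 and PBRM1), beside 19.0% of all tested genes, and 0 of 10 members higher, beside 0.129%. With the block on the median-of-ratios scale 0 members were called, and 0.0% of all tested genes passed in either direction, with 2 members at an unadjusted p-value under 0.05 in each direction, beside 13.9% of all tested genes lower and 15.4% higher. The limma-voom fit to recovered reads with the block called 0 members, beside 2.34% of all tested genes lower and 1.38% higher, with 2 members at an unadjusted p-value under 0.05 in each direction (ARID2 and PBRM1 lower, SMARCB1 and SMARCD1 higher), beside 17.2% of all tested genes lower and 15.5% higher.

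**Figure D1:**
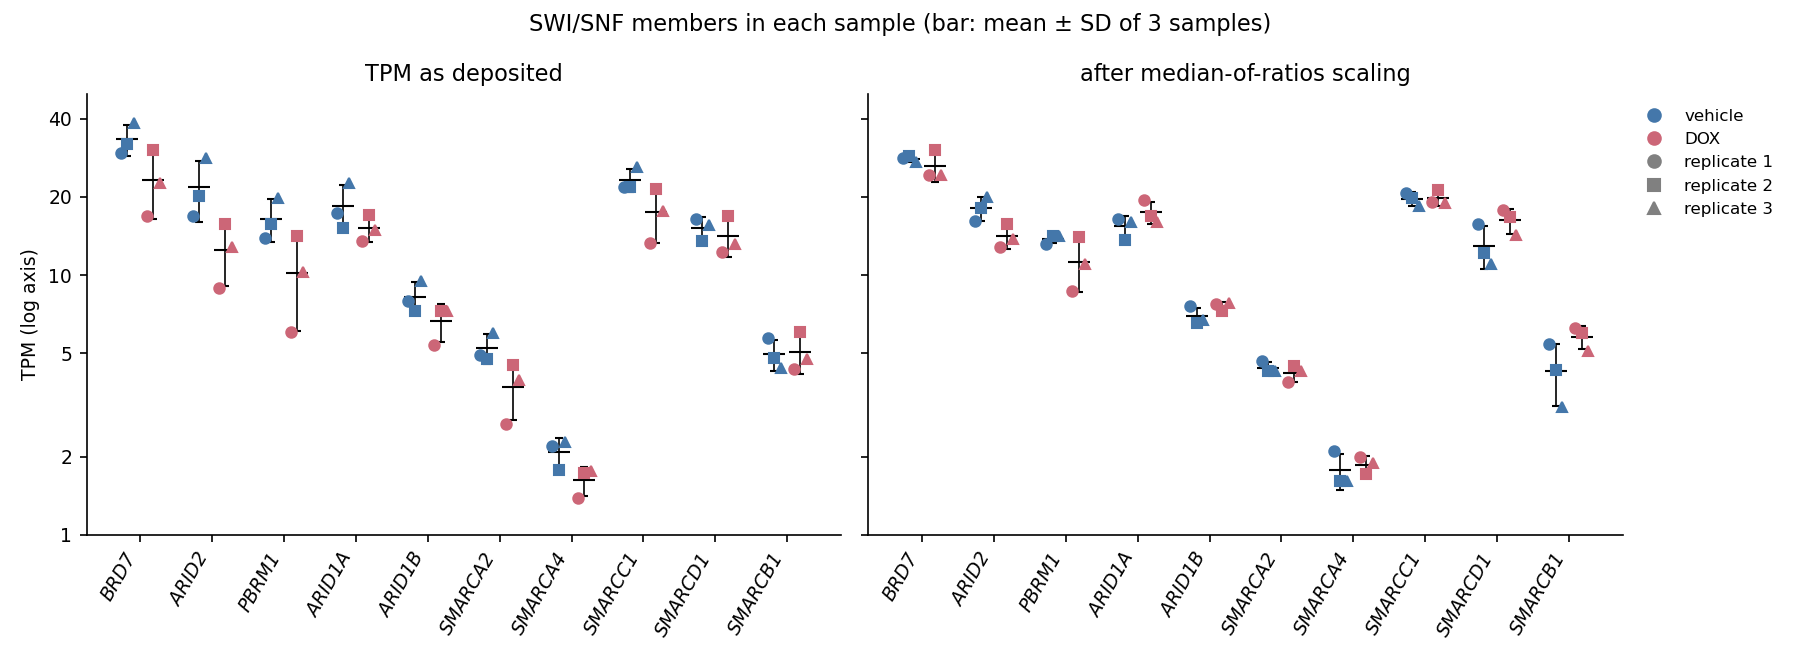
TPM of the 10 members in each sample on a log axis, as deposited (left) and after median-of-ratios scaling (right), with points for the 3 vehicle and 3 DOX samples, shapes for replicate numbers and bars for the mean ± SD. On the left DOX replicate 1 is the lowest sample of all 10 members, and on the right only ARID2 has all DOX samples below all vehicle samples.

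The ATPase genes were the least abundant members together with SMARCB1. SMARCA4 (chr19:10960932-11079426, GRCh38, + strand) had 2.20, 1.78 and 2.27 TPM in vehicle replicates 1, 2 and 3 and 1.38, 1.72 and 1.75 TPM in DOX replicates 1, 2 and 3. SMARCA2 (chr9:1980290-2193624, GRCh38, + strand) had 4.91, 4.74 and 6.01 TPM in vehicle replicates 1, 2 and 3 and 2.68, 4.50 and 3.96 TPM in DOX replicates 1, 2 and 3. For both genes the 3 DOX samples lay below the 3 vehicle samples, and DOX replicate 1 was the lowest sample. SMARCA4 averaged 2.08 ± 0.265 TPM (SD, n = 3) in vehicle and 1.62 ± 0.204 TPM (SD, n = 3) in DOX, with a log2 fold change of -0.23 (SE 0.195) and an adjusted p-value of 0.384 in limma. SMARCA2 averaged 5.22 ± 0.687 TPM (SD, n = 3) in vehicle and 3.71 ± 0.937 TPM (SD, n = 3) in DOX, with a log2 fold change of -0.41 (SE 0.227) and an adjusted p-value of 0.205. Neither ATPase gene passed the test. On the median-of-ratios scale the groups of both genes overlapped, with log2 fold changes of 0.052 for SMARCA4 and -0.056 for SMARCA2. The values of SMARCA4 rested on few reads, 73 in vehicle replicate 3 and between 269 and 1142 in the other samples.

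SMARCA4 and SMARCA2 are paralogs, and their coding sequences are shown because the genes differ in GC content, a property set beside the fold changes of all members. The stretches lie in the middle of the longest coding exon of each gene (10986189 to 10986593 on chromosome 19 and 2039466 to 2039900 on chromosome 9, GRCh38, + strand), were aligned without gaps, and are printed with G and C in capitals. SMARCA4 is read from chr19:10986340-10986450 and SMARCA2 from chr9:2039623-2039733.
SMARCA4: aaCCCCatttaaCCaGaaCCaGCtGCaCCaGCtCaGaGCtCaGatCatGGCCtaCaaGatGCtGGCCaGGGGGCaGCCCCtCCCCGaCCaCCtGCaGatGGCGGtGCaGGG
SMARCA2: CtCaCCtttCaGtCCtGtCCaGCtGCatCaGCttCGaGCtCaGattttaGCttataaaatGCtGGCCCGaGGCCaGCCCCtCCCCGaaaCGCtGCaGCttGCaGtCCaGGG
Of the 111 aligned bases, 80 (72.1%) were identical, and G or C made up 62.2% of the SMARCA4 stretch and 56.8% of the SMARCA2 stretch. Over the whole coding sequence, GC content was 61.3% in SMARCA4 and 51.4% in SMARCA2.

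Among the core subunit genes, SMARCC1 was on average lower in DOX on the TPM scale and SMARCB1 was level between the groups, and none passed the test. SMARCC1 (chr3:47585269-47782106, GRCh38, - strand), which encodes the BAF155 scaffold around which the complex assembles, had 21.8, 21.9 and 26.1 TPM in vehicle replicates 1, 2 and 3 and 13.2, 21.5 and 17.6 TPM in DOX replicates 1, 2 and 3. All 3 DOX values were below the vehicle values, although DOX replicate 2 was within 1 TPM of vehicle replicates 1 and 2. SMARCC1 averaged 23.3 ± 2.42 TPM (SD, n = 3) in vehicle and 17.4 ± 4.12 TPM (SD, n = 3) in DOX, with a log2 fold change of -0.42 (SE 0.265) and an adjusted p-value of 0.268 in limma. Scaled by the median of ratios, SMARCC1 had a log2 fold change of 0.0078.

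SMARCD1 (chr12:50085200-50100707, GRCh38, + strand), which encodes BAF60A, a subunit that contacts transcription factors, had 16.5, 13.6 and 15.6 TPM in vehicle replicates 1, 2 and 3 and 12.3, 16.8 and 13.2 TPM in DOX replicates 1, 2 and 3. The groups overlapped, and the highest value was that of DOX replicate 2. Its log2 fold change was -0.11 (SE 0.255) with an adjusted p-value of 0.761 in limma, from means of 15.2 ± 1.51 TPM (SD, n = 3) and 14.1 ± 2.39 TPM (SD, n = 3). SMARCB1 (chr22:23786931-23838009, GRCh38, + strand), the tumor suppressor also called INI1 or SNF5 that binds the nucleosome acidic patch, had 5.71, 4.78 and 4.39 TPM in vehicle replicates 1, 2 and 3 and 4.34, 6.02 and 4.76 TPM in DOX replicates 1, 2 and 3. SMARCB1 was the only member with a positive log2 fold change on the TPM scale, 0.017 (SE 0.228), with an adjusted p-value of 0.959 and means of 4.96 ± 0.679 TPM (SD, n = 3) and 5.04 ± 0.875 TPM (SD, n = 3). Its sign depended on single libraries, with -0.097 without DOX replicate 2. On the median-of-ratios scale SMARCB1 and SMARCD1 had the highest log2 fold changes of the members, 0.38 (adjusted p-value 0.314) and 0.31 (adjusted p-value 0.337). Over the alternative fits the adjusted p-value of SMARCB1 ranged from 0.0765 to 0.995 and that of SMARCD1 from 0.0686 to 0.970. SMARCB1 rested on 83 reads in vehicle replicate 3, its lowest sample on that scale at 3.11.

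The canonical BAF genes ARID1A and ARID1B, which encode alternative DNA-binding subunits that stabilize the BAF complex, did not pass the test in limma on TPM or in any of the 17 alternative fits. ARID1A (chr1:26693236-26782104, GRCh38, + strand) had 17.3, 15.2 and 22.5 TPM in vehicle replicates 1, 2 and 3 and 13.5, 17.0 and 14.9 TPM in DOX replicates 1, 2 and 3. ARID1B (chr6:156776020-157210779, GRCh38, + strand) had 7.96, 7.25 and 9.48 TPM in vehicle replicates 1, 2 and 3 and 5.38, 7.28 and 7.24 TPM in DOX replicates 1, 2 and 3. Vehicle replicate 3 was the highest sample and DOX replicate 1 the lowest for both genes, and the groups overlapped. ARID1A averaged 18.4 ± 3.78 TPM (SD, n = 3) in vehicle and 15.1 ± 1.78 TPM (SD, n = 3) in DOX, a log2 fold change of -0.25 (SE 0.260) with an adjusted p-value of 0.483 in limma. ARID1B averaged 8.23 ± 1.14 TPM (SD, n = 3) and 6.64 ± 1.09 TPM (SD, n = 3), a log2 fold change of -0.28 (SE 0.240) with an adjusted p-value of 0.403. Both were above the median of all tested genes, by 0.098 for ARID1A and 0.073 for ARID1B. On the median-of-ratios scale both log2 fold changes turned positive, at 0.17 and 0.12.

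The PBAF genes ARID2, PBRM1 and BRD7 had the most negative log2 fold changes of the members, and each was below the median of all tested genes on the TPM scale. ARID2 (chr12:45729706-45908040, GRCh38, + strand), the DNA-binding subunit that defines PBAF, had 16.9, 20.2 and 28.1 TPM in vehicle replicates 1, 2 and 3 and 8.89, 15.8 and 12.8 TPM in DOX replicates 1, 2 and 3. Every DOX sample was below every vehicle sample. ARID2 averaged 21.7 ± 5.75 TPM (SD, n = 3) in vehicle and 12.5 ± 3.45 TPM (SD, n = 3) in DOX, with a log2 fold change of -0.76 (SE 0.270) and an adjusted p-value of 0.0790 in limma, and it was not called. It was called with the replicate block (adjusted p-value 0.00202), without vehicle replicate 1 (log2 fold change -0.91, adjusted p-value 0.0498) and without DOX replicate 2 (log2 fold change -0.93, adjusted p-value 0.0167). The adjusted p-value of ARID2 ranged from 0.00202 to 0.814 over the 17 alternative fits.

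Median-of-ratios scaling gave ARID2 values of 16.1, 18.2 and 19.9 in vehicle and 12.8, 15.7 and 13.8 in DOX. The groups still did not overlap, and the log2 fold change was -0.34 with an adjusted p-value of 0.283. In the limma-voom fit with the replicate block ARID2 had a log2 fold change of -0.36 and an adjusted p-value of 0.0336, with a fold change under 1.5.

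PBRM1 (chr3:52545352-52685917, GRCh38, - strand), which encodes polybromo, a subunit with multiple acetyl-lysine-binding bromodomains, had 13.8, 15.7 and 19.9 TPM in vehicle replicates 1, 2 and 3 and 6.05, 14.1 and 10.2 TPM in DOX replicates 1, 2 and 3. The groups overlapped only through DOX replicate 2, which was above vehicle replicate 1. PBRM1 averaged 16.5 ± 3.09 TPM (SD, n = 3) in vehicle and 10.1 ± 4.05 TPM (SD, n = 3) in DOX, with a log2 fold change of -0.70 (SE 0.271) and an adjusted p-value of 0.0947 in limma. It was called with the replicate block (adjusted p-value 0.00390) and without DOX replicate 2 (log2 fold change -0.96, adjusted p-value 0.0112). Scaled by the median of ratios, PBRM1 had a log2 fold change of -0.29 with an adjusted p-value of 0.374, and its adjusted p-value ranged from 0.00390 to 0.797 over the 17 alternative fits.

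BRD7 (chr16:50313487-50368988, GRCh38, - strand), which encodes a bromodomain subunit of PBAF, had 29.6, 32.0 and 38.4 TPM in vehicle replicates 1, 2 and 3 and 16.8, 30.4 and 22.6 TPM in DOX replicates 1, 2 and 3. DOX replicate 2 lay between vehicle replicates 1 and 2, and the other DOX samples were below all vehicle samples. BRD7 averaged 33.3 ± 4.55 TPM (SD, n = 3) in vehicle and 23.3 ± 6.79 TPM (SD, n = 3) in DOX, with a log2 fold change of -0.53 (SE 0.274) and an adjusted p-value of 0.183 in limma. With the replicate block the adjusted p-value was 0.0305, and BRD7 was not called because its fold change was under 1.5. Its adjusted p-value ranged from 0.0305 to 0.921 over the alternative fits. On the median-of-ratios scale its log2 fold change was -0.10.

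**Figure D2:**
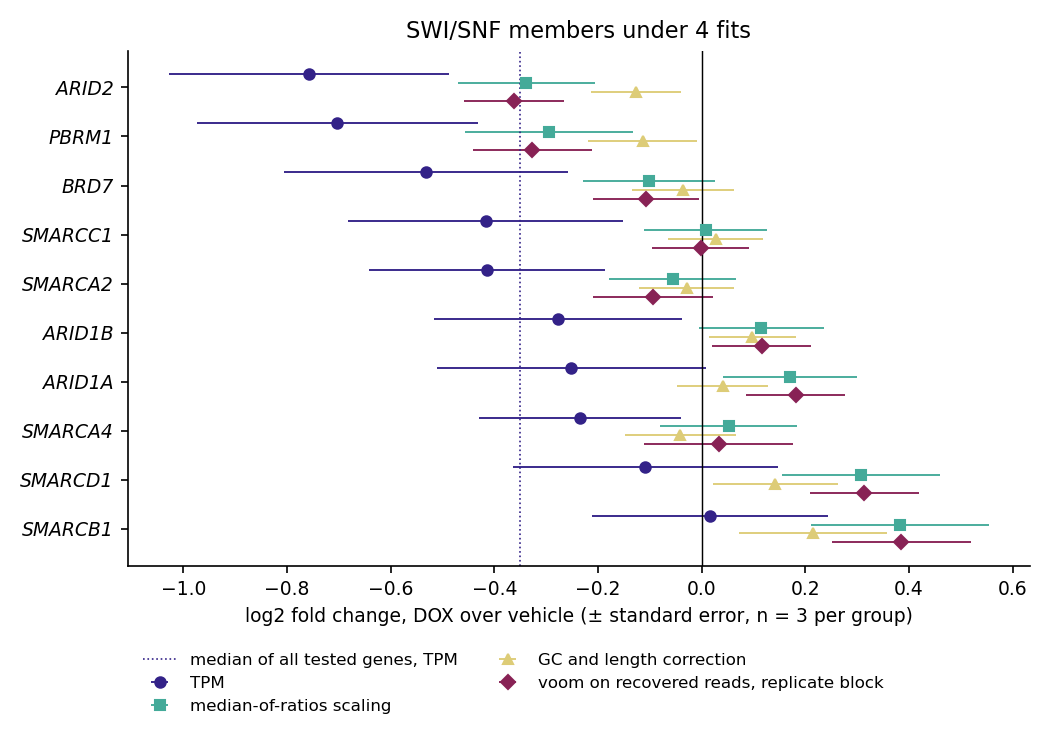
Log2 fold change of each member, DOX over vehicle, with its standard error (n = 3 per group), on the TPM scale, after median-of-ratios scaling, after correction for GC content and transcript length, and from limma-voom on recovered reads with the replicate block. TPM values run from -0.76 for ARID2 to 0.017 for SMARCB1 around the dotted median of all tested genes at -0.35, and the corrected values run from -0.13 to 0.22.

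The log2 fold changes of the members followed the GC content of their transcripts, taken from the canonical transcript of each gene. ARID2, PBRM1 and BRD7 had the lowest GC contents of the members, at 40.5%, 41.8% and 43.5%. SMARCC1 had 46.5%, SMARCA2 48.8%, SMARCD1 53.4% and ARID1B 53.6%. ARID1A, SMARCB1 and SMARCA4 had the highest GC contents, at 57.5%, 59.6% and 60.6%. Over the 10 members Pearson's r of GC content with log2 fold change on the TPM scale was 0.90 and Spearman's rho was 0.90, a description of genes that share the same 6 libraries. Over 10850 tested genes with a known GC content r was 0.69 and rho was 0.72, and the median log2 fold change went from -0.64 in the decile with a median GC content of 36.8% to -0.086 in the decile with 63.5%.

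Coding stretches of PBRM1 and SMARCB1 are shown as examples of a member with a negative log2 fold change and the member with a positive one. Each stretch is the middle of the longest coding exon, read along the strand of the gene, with G and C in capitals. PBRM1 is read from chr3:52609574-52609693 (GRCh38, - strand) and SMARCB1 from chr22:23825260-23825379 (GRCh38, + strand).
PBRM1: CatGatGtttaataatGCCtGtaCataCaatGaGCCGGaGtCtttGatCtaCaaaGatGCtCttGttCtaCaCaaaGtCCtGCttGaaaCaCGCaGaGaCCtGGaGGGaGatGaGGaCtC
SMARCB1: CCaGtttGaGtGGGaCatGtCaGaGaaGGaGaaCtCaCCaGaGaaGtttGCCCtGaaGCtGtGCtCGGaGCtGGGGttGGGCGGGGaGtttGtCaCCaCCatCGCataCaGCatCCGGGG
G or C made up 44.2% of the PBRM1 stretch and 57.5% of the SMARCB1 stretch, and 44.8% and 55.7% of their whole coding sequences. SMARCA4 had a higher GC content over its coding sequence than SMARCB1, 61.3%, and a negative log2 fold change on the TPM scale (-0.23).

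Set against genes of like GC content, ARID2 at -0.76 was below the 25th percentiles of the deciles on either side of it, -0.70 at 39.3% GC and -0.64 at 41.5% GC. PBRM1 at -0.70 was also below the 25th percentile of the nearest decile, -0.64. SMARCB1 at 0.017 was above the 75th percentile of the nearest decile, -0.055 at 59.1% GC. After values were corrected within each sample for GC content and transcript length, the log2 fold changes were -0.13 for ARID2 (adjusted p-value 0.625), -0.11 for PBRM1 (adjusted p-value 0.729) and 0.22 for SMARCB1 (adjusted p-value 0.617). The other 7 members were between -0.041 and 0.14. The corrected limma fit called 0 of 10 members, and 0.0% of all tested genes. At an unadjusted p-value under 0.05 it gave 0 members in either direction, beside 5.96% of all tested genes lower and 4.51% higher. The correction also centres each sample, which removes the shift of all genes. It also fixes Pearson's r of GC content with log2 fold change at 0 over all tested genes with a known GC content. Over the 10 members r was 0.68 after the correction.

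**Figure D3:**
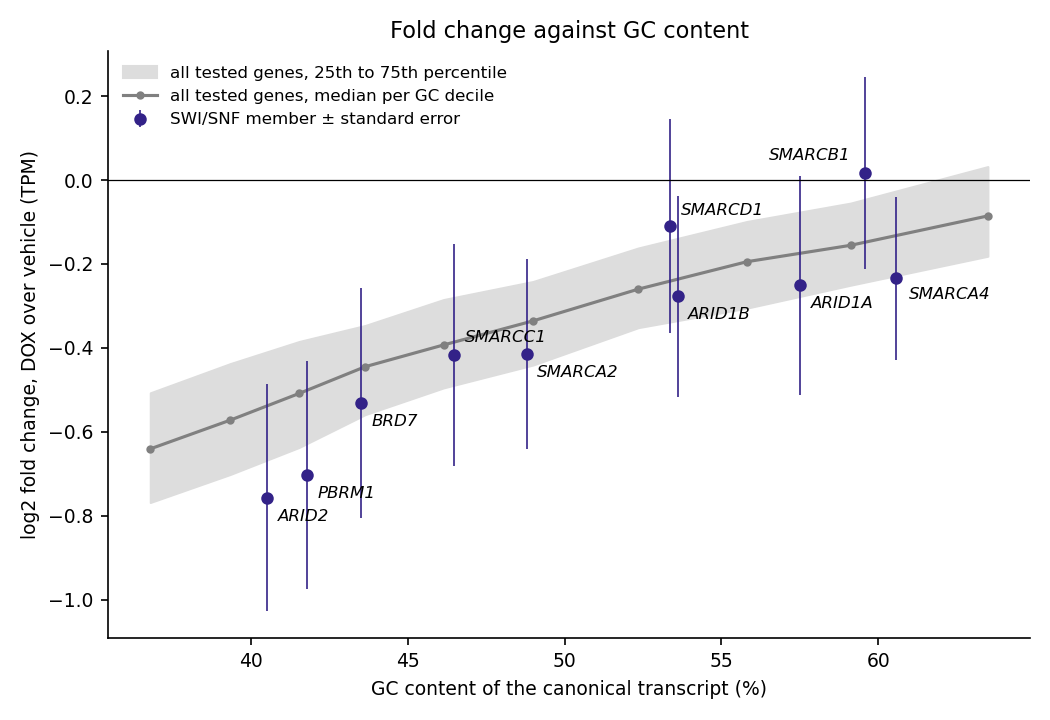
Log2 fold change on the TPM scale, DOX over vehicle, against the GC content of the canonical transcript, with the 10 members as points with standard errors and all tested genes as the median and the 25th to 75th percentile per GC decile. ARID2 and PBRM1 sit below the band at its low-GC end, SMARCB1 and SMARCD1 sit above it, and the slope of the members goes the same way as that of all genes.

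TPM is per length, so an order of levels between genes depends on the gene length used for each. Those lengths were not given in the sources used here. In vehicle the order was BRD7 (33.3 ± 4.55 TPM, SD, n = 3), SMARCC1, ARID2, ARID1A, PBRM1, SMARCD1, ARID1B, SMARCA2, SMARCB1 and SMARCA4 (2.08 ± 0.265 TPM, SD, n = 3). The ranges of neighbours did not overlap between BRD7 and SMARCC1, SMARCD1 and ARID1B, ARID1B and SMARCA2, and SMARCB1 and SMARCA4, and overlapped for the other 5 neighbouring pairs. In DOX ARID2 came after ARID1A and SMARCD1, and only SMARCA2 and SMARCA4 did not overlap. Among all tested genes BRD7 was at the 85.7 percentile of mean level, SMARCC1 at 79.2, ARID1B at 50.6 and SMARCA4 at 12.2. In vehicle replicate 1 BRD7 had 1471 reads at 29.6 TPM, whereas SMARCA2 had 795 reads at 4.91 TPM. Their canonical transcripts are of similar length, 5424 and 5748 bases. The TPM of BRD7 was therefore computed with a much shorter length than that of SMARCA2. The rank and percentile of BRD7 depend on this length. SMARCB1, with 461 reads at 5.71 TPM in that sample and a canonical transcript of 5191 bases, also had fewer reads per TPM than SMARCA2. GC contents and the GC and length correction used the canonical transcripts. For BRD7 and SMARCB1 these may differ from the transcripts behind the TPM, which was not tested. SMARCA4 is listed far below its partners in the complex. In vehicle replicate 1 it also had the fewest reads of the members, 302 at 2.20 TPM, for a canonical transcript of 5577 bases. The reason for its low level was not tested.

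Ratios of TPM within a sample do not depend on its scaling, whereas differences of log2(TPM + 1) depend on it in part for genes with low TPM. On the scale of log2(TPM + 1), 9 pairs of subunit genes were compared by an exact two-sided test that permutes the samples, in which 0.1 is the lowest p-value for groups of 3. The same test on the plain ratio, without the pseudocount of 1, was added after the data were seen. How often the groups of other gene pairs separate was not computed, so counts of separated pairs have no background here. The ratio of ARID1A to ARID2, which sets a canonical BAF gene against a PBAF gene, was 1.02, 0.753 and 0.802 in vehicle and 1.51, 1.08 and 1.17 in DOX. All DOX ratios were above all vehicle ratios, with a log2 difference of 0.51, an exact p-value of 0.1 (0.225 adjusted over the 9 pairs), and a difference of 0.17 after the correction for GC content and length. The ratio of PBRM1 to SMARCB1 was 2.42, 3.28 and 4.53 in vehicle and 1.39, 2.35 and 2.15 in DOX. Here all DOX ratios were below all vehicle ratios, with a log2 difference of -0.72 (exact p-value 0.1, 0.225 adjusted) and -0.33 after correction. Both pairs still did not overlap between the groups after the correction, and the plain ratios gave log2 differences of 0.54 and -0.79 (exact p-value 0.1 each).

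SMARCC1 to SMARCB1 was also lower in every DOX sample, with a log2 difference of -0.43 (exact p-value 0.1, 0.225 adjusted) and an overlap after correction, at -0.19. For BRD7 to BRD9 and SMARCA4 to SMARCB1 the separation depended on the pseudocount. The ratio of BRD7 to BRD9, a subunit gene of the noncanonical BAF form, was 3.67, 4.35 and 3.42 in vehicle and 2.83, 3.47 and 3.48 in DOX, so that the plain ratios overlapped (log2 difference -0.23, exact p-value 0.3). On the log2(TPM + 1) scale its groups were separated, with a difference of -0.24 (exact p-value 0.1, 0.225 adjusted), and after correction they overlapped, at 0.049. The ratio of SMARCA4 to SMARCB1 was 0.386, 0.372 and 0.518 in vehicle and 0.319, 0.286 and 0.368 in DOX, and all plain DOX ratios were below all vehicle ratios (log2 difference -0.38, exact p-value 0.1, 0.225 adjusted). On the log2(TPM + 1) scale its groups overlapped, with a difference of -0.25 (exact p-value 0.2, 0.3 adjusted). The ATPase ratio, SMARCA4 to SMARCA2, was 0.449, 0.376 and 0.378 in vehicle and 0.517, 0.383 and 0.443 in DOX. The groups overlapped, with a log2 difference of 0.18 (exact p-value 0.2, 0.3 adjusted) and -0.012 after correction. The paralog ratio ARID1A to ARID1B was 2.18, 2.10 and 2.38 in vehicle and 2.50, 2.33 and 2.06 in DOX, with a log2 difference of 0.025 (exact p-value 0.9). ARID2 to PBRM1 and SMARCC1 to SMARCC2 overlapped as well, with log2 differences of -0.054 and -0.076 (adjusted exact p-values 0.900 and 0.771).

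**Figure D4:**
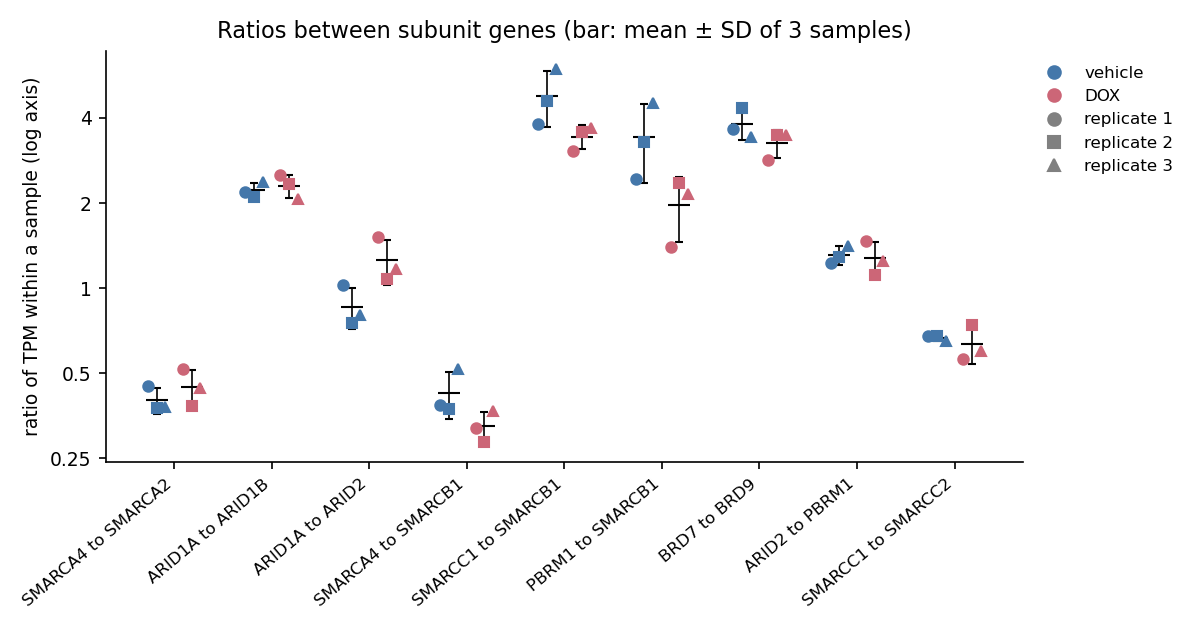
Ratios of TPM within a sample for the 9 pairs of subunit genes on a log axis, with points for the 3 vehicle and 3 DOX samples and bars for the mean ± SD. ARID1A to ARID2 is higher in all DOX samples (0.859 against 1.25 on average), PBRM1 to SMARCB1 is lower in all DOX samples (3.41 against 1.96), SMARCA4 to SMARCB1 is lower in all DOX samples by a narrow margin, and SMARCA4 to SMARCA2 overlaps.

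Of the 21 other SWI/SNF subunit genes, 16 were tested and limma called 0. Before adjustment 4 of the 16 were lower at p under 0.05 and 0 were higher, beside 29.2% and 0.206% of all tested genes. Their median log2 fold change was -0.29 on the TPM scale, beside -0.35 for all tested genes. Of the 16, 14 were negative, beside 10867 of all 11672 tested genes. The direction turned on the median-of-ratios scale, with a median of 0.12. There 10 of 16 were positive, beside 6129 of 11595 tested genes. The lowest were the core gene SMARCE1 at -0.59 (SE 0.278), SS18 at -0.59 (SE 0.285), whose protein is the BAF subunit fused to SSX in synovial sarcoma, and the PBAF gene PHF10 at -0.57 (SE 0.264). SMARCE1 had 38.4, 46.7 and 47.9 TPM in vehicle and 20.2, 36.5 and 32.8 TPM in DOX, and the groups did not overlap, although they did on the median-of-ratios scale (-0.16). With the replicate block SMARCE1 and SS18 were called lower (adjusted p-values 0.0168 and 0.0177), beside 19.0% of all tested genes, and without DOX replicate 2 SS18 alone was called (adjusted p-value 0.0485). The highest log2 fold changes were those of BCL7C at 0.30 (SE 0.209), the noncanonical BAF gene BICRA at 0.053 (SE 0.203) and the actin gene ACTB at -0.14 (SE 0.214). BCL7C had 2.70, 1.52 and 1.55 TPM in vehicle and 2.12, 3.22 and 2.39 TPM in DOX, with overlap. ACTL6B, DPF1, DPF3, BCL11A and BCL11B were under the expression minimum, with ACTL6B, the neuronal actin-related subunit gene, listed at 0 in every sample.

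The ISWI remodelers, which space nucleosomes, had a median log2 fold change of -0.72 over 11 tested genes, beside -0.35 for the SWI/SNF members. All 11 were negative, as were 10867 of all 11672 tested genes. On the median-of-ratios scale the median was -0.28 and after the GC and length correction it was -0.082. Limma called 1 of 11 ISWI genes lower, beside 2.98% of all tested genes, namely BAZ2B, an acetyl-lysine reader of an ISWI complex, with 2.68, 3.61 and 4.95 TPM in vehicle and 0.865, 2.12 and 1.86 TPM in DOX. All DOX values of BAZ2B were below the vehicle values, with a log2 fold change of -0.87 (SE 0.222) and an adjusted p-value of 0.0362 in limma. It was not called on the median-of-ratios scale (-0.57, adjusted p-value 0.280), after the GC and length correction (-0.23, adjusted p-value 0.468), or without vehicle replicate 2, vehicle replicate 3 or DOX replicate 1. Of the 17 alternative fits, 5 called it lower, namely the replicate block with limma or limma-voom and the fits without vehicle replicate 1, DOX replicate 2 or DOX replicate 3. BPTF and RSF1, large ISWI partner subunits, had log2 fold changes of -0.91 (SE 0.278) and -0.88 (SE 0.267) and adjusted p-values of 0.0545 and 0.0544. With the replicate block 6 of 11 ISWI genes were called lower (BAZ1A, BAZ2B, BPTF, RSF1, SMARCA1 and SMARCA5), beside 19.0% of all tested genes.

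The INO80 and SRCAP/TIP60 families, which slide nucleosomes or exchange histone variants, had 18 of 20 genes tested and 0 called by limma (before adjustment, 1 was lower at p under 0.05 and 0 were higher, beside 29.2% and 0.206% of all tested genes). Their median log2 fold change was -0.27 on the TPM scale. It turned to 0.11 on the median-of-ratios scale, with 14 of 18 positive, beside 6129 of 11595 tested genes. After the GC and length correction their median was 0.076. INO80B and TFPT were under the expression minimum. The highest values were those of the AAA+ ATPase gene RUVBL2 at 0.23 (SE 0.254) and of INO80E at 0.068 (SE 0.225). With the replicate block 1 of 18, INO80D, was called lower (adjusted p-value 0.00203), beside 19.0% of all tested genes, and limma-voom with the block called RUVBL2 higher and BAZ2B lower (adjusted p-values 0.0129 and 0.00808), beside 1.38% and 2.34% of all tested genes. Of 4 regulators, MUC1, MYC, E2F1 and RELA, limma called 0, with log2 fold changes on the TPM scale of -0.37 (SE 0.259) for MUC1, -0.42 (SE 0.264) for MYC, -0.087 (SE 0.232) for E2F1 and -0.080 (SE 0.263) for RELA, which encodes NF-kB p65. MUC1 had 17.9, 15.7 and 18.9 TPM in vehicle and 14.1, 10.3 and 16.0 TPM in DOX. MYC had 22.6, 21.6 and 30.9 TPM in vehicle and 17.5, 16.9 and 20.5 TPM in DOX, and its groups did not overlap. All 4 log2 fold changes turned positive on the median-of-ratios scale (0.055 for MUC1, 0.0087 for MYC, 0.29 for E2F1 and 0.35 for RELA), and the MYC groups overlapped.

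**Figure D5:**
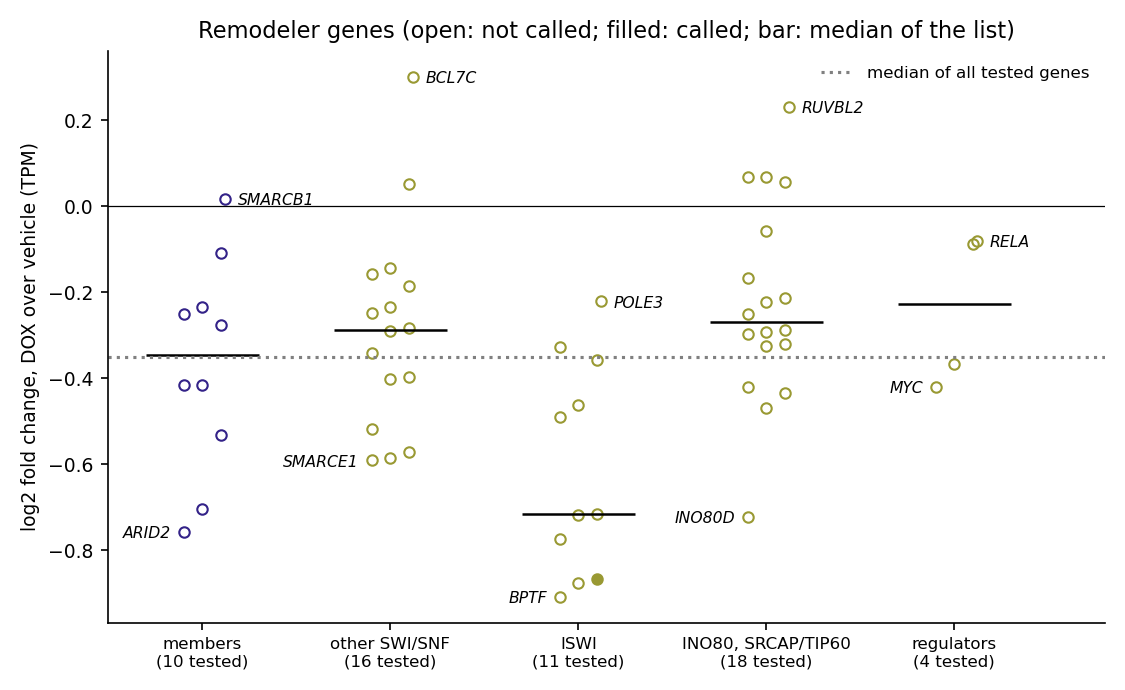
Log2 fold change on the TPM scale, DOX over vehicle, of every tested gene in the 10 members, the 16 other SWI/SNF subunit genes, the 11 ISWI genes, the 18 INO80 and SRCAP/TIP60 genes and the 4 regulators, with bars for list medians and a dotted line for the median of all tested genes. The only filled point is BAZ2B, the members center on the dotted line, and the ISWI median is at -0.72.

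The genes whose profile over the 6 samples was most like the mean profile of the members were SDHAP1, C1ORF131, KIAA1671, SUSD1 and SYNM. Likeness was the root mean square difference of centred log2 values on the median-of-ratios scale, over 11526 genes outside the lists, and it was 0.0209, 0.0222, 0.0305, 0.0315 and 0.0337 for these genes. The mean profile of the members was nearly flat on that scale, between -0.073 in vehicle replicate 3 and 0.089 in DOX replicate 2, so that likeness here mostly means little variation.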

How the data were processed

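RNA-seq was analysed from 3 vehicle and 3 DOX samples, grouped by their labels. From total RNA the authors made stranded mRNA libraries, aligned reads with STAR to GRCh38, and deposited a table of TPM by gene symbol, with 6277 of 25528 symbols at 0 in all samples. The versions of the tools, the counting tool and the gene lengths were not given in the sources used here, and of the annotation only a release number stands beside the build. The authors also deposited DESeq2 output for DOX against vehicle. Its fold changes (log2), test statistic and p-values were not used, and its mean normalized count per gene, a signal that the authors averaged over all samples, served only to recover reads.

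TPM was tested as log2(TPM + 1) with limma 3.58.1 (R 4.3.3), with an eBayes trend and without a block, on genes whose mean TPM reached 1. p-values were adjusted over all tested genes by the Benjamini-Hochberg method. Fold changes on this scale understate those of genes with low TPM. TPM and the mean normalized counts were solved for reads per gene, and 99.32% of 17186 low values were whole within 0.05, against 10% by chance. No pair of samples was identical. On simulated data the limma fit recovered 183 of 200 genes with a 2-fold change, with 7 false calls among 11634 genes. Limma-voom without the block recovered 195 with 6 false calls. The simulated reads had no GC trend, no replicate effect and no shift of all genes, so these counts do not carry over to the fits above. The recovery of reads, tested on values rebuilt from its own output, returned them for 100% of 19251 genes.

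GC content and length came from the canonical transcripts of GENCODE 44, matched for 87.2% of symbols and 93.0% of tested genes, and were corrected by a spline with 5 degrees of freedom. Loci and sequences came from the same release on GRCh38. Samples with the same number deviated together from their group means (r across genes = 0.57, 0.24 and 0.21 for numbers 1, 2 and 3, and 0.16, 0.01 and 0.16 after the correction), so the number was also fitted as a replicate block. Correlations between samples with different numbers were not computed, so these values do not show that a number marks a shared effect. What a number stands for is not in the labels. The members, lists and named genes (all members, called genes and extremes of each list, and the 5 most alike genes) were chosen with earlier results of these data known. Python 3.11.15 was used with SciPy 1.17.1 for ratios, pandas 2.3.3 for tables and matplotlib 3.10.9 for plots.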

Additional observations from a re-analysis of the deposited data

How the results depend on the processing

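ARID2, PBRM1 and SMARCA2 kept a negative log2 fold change in every one of the 17 alternative fits, and no member was called in limma on TPM. The call of 0 lower members became 2 with the replicate block and, without single libraries, ranged from 0 to 2 (1 without vehicle replicate 1, 2 without DOX replicate 2). Under median-of-ratios scaling, and equally with the replicate block added to it (an alternative chosen after the data were seen), the direction turned for ARID1A (0.17), ARID1B (0.12), SMARCA4 (0.052), SMARCC1 (0.0078) and SMARCD1 (0.31). With TPM rescaled without the 5 small RNAs the direction turned for ARID1A (0.090), ARID1B (0.041) and SMARCD1 (0.24). After the correction for GC content and length, with or without the replicate block, the direction turned for ARID1A (0.041), ARID1B (0.098), SMARCC1 (0.027) and SMARCD1 (0.14). In limma-voom on recovered reads the direction turned for ARID1A (0.18), ARID1B (0.12), SMARCA4 (0.071) and SMARCD1 (0.30). In limma-voom with the replicate block the direction turned for ARID1A (0.18), ARID1B (0.12), SMARCA4 (0.033) and SMARCD1 (0.31). In limma-voom with the block and the correction the direction turned for ARID1A (0.10), ARID1B (0.13), BRD7 (0.050), SMARCC1 (0.096) and SMARCD1 (0.19). Without single libraries the log2 fold change of SMARCB1 ranged from -0.097 to 0.11 and was negative without vehicle replicate 2 (-0.0019), vehicle replicate 3 (-0.053) or DOX replicate 2. Of the ratios, the GC and length correction turned SMARCA4 to SMARCA2 (-0.012), ARID1A to ARID1B (-0.057), BRD7 to BRD9 (0.049) and SMARCC1 to SMARCC2 (0.076), and left 2 of the 4 pairs separated on the log2(TPM + 1) scale. Without a pseudocount 4 pairs were separated as well, with SMARCA4 to SMARCB1 (-0.38) in place of BRD7 to BRD9 (-0.23). The share of separated pairs among other pairs of genes was not computed. Single libraries moved ARID1A to ARID1B from -0.023 to 0.092, ARID2 to PBRM1 from -0.14 to 0.028 and SMARCC1 to SMARCC2 from -0.19 to 0.0014. With same-numbered samples paired, all 3 pairs moved one way for 6 of 9 ratios, where an exact sign-flip test cannot go under 0.25. Over all genes, 348 were called lower and 3 higher. These counts were 0 and 0 under median-of-ratios scaling with and without the block, without the 5 small RNAs, without an expression minimum, and after the GC and length correction with and without the block. They were 46 lower with a pseudocount of 0.1, 2217 and 15 with the replicate block, 1 and 0 in limma-voom, 273 and 161 in limma-voom with the block, and 3 and 1 when the correction was added to it. Without single libraries they ranged from 0 to 2378 lower and from 0 to 23 higher, with 0 lower without vehicle replicate 3, 1 without vehicle replicate 2 and 1242 without vehicle replicate 1. Leaving out a DOX sample gave 129, 2378 and 139 lower for replicates 1, 2 and 3. For the other SWI/SNF subunits the count of 0 called lower became 2 with the replicate block and ranged from 0 to 1 without single libraries. For the other remodelers 1 was called lower, which became 7 with the block and 0 under median-of-ratios scaling (with or without the block), without the small RNAs, with a pseudocount of 0.1, without the minimum, after the correction (with or without the block), and in limma-voom without the block or with the block and the correction. It ranged from 0 to 8 without single libraries (0 without vehicle replicate 2 or 3 or DOX replicate 1, 4 without vehicle replicate 1, 8 without DOX replicate 2), and limma-voom with the block called 1 higher. The cause of these changes was not tested. SMARCA4 and SMARCB1, with 73 and 83 reads in vehicle replicate 3, were the members most limited by depth.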
